A study of Mus musculus with 12 samples.

Results

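The genes described here encode the tachykinin and opioid neuropeptide precursors Tac1, Penk, Pdyn and Pnoc and the receptors Tacr1, Tacr3, Oprm1, Oprd1 and Oprk1. The set of genes was chosen with earlier results of these data known, so its comparisons with all transcripts are descriptive. Its rows were taken by gene symbol. Each is a transcript cluster (the set of probes that an array reads out as 1 transcript) to which the platform annotation gives that single symbol. All 9 genes were found, each as 1 of 21218 transcript clusters with a single symbol, out of 18820 genes with such a cluster. The arrays came from C57BL/6J mice that carry the humanized knock-in FDloxP/+ of IKBKAP, a model of familial dysautonomia (FD), a hereditary disorder of sensory and autonomic nerve cells. From 4 months of age, for 3 months, mice were dosed by oral gavage on alternate days with 100 µl of phosphatidylserine (PS) at 200 mg/kg or with 100 µl of its vehicle, medium-chain triglycerides (MCT). Cerebrum and heart were each measured on 3 arrays from PS mice and 3 from MCT mice, 12 arrays in all, and the question was whether PS alters gene expression in these mice.

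Every array carries the same genotype and strain label, with 1 copy of the knock-in allele, and no group of another genotype was analysed here. The series design counts 6 FD mice, whereas the growth protocol divides the mice into 3 FD and 3 wild type. The source names give the dose per day rather than per kg. The arrays are labelled biological replicates, without saying which cerebrum and heart came from 1 mouse. Equal numbers in the 2 tissues are therefore names only.

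Tac1 is cut into substance P and neurokinin A. Substance P acts on the receptor encoded by Tacr1, while the Tacr3 receptor prefers neurokinin B, the product of Tac2. Penk gives the enkephalins, which act at delta and mu receptors (Oprd1 and Oprm1), Pdyn gives the dynorphins, which act at the kappa receptor (Oprk1), and Pnoc gives nociceptin, the ligand of Oprl1. In the forebrain Tac1, Penk and Pdyn are dense in the striatum. There Penk marks the medium spiny neurons of the indirect pathway and Tac1 and Pdyn those of the direct pathway. In the periphery, substance P is a transmitter of small sensory fibres, including those of the heart.

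The tissue labels were checked against marker genes. The mean log2 intensity of 6 neuronal markers was 10.68 to 11.02 in cerebrum and 4.88 to 5.11 in heart. That of 6 cardiomyocyte markers was 12.38 to 12.45 in heart and 4.98 to 5.21 in cerebrum. A second check concerned sex-linked transcripts: Xist was at 8.92 to 9.86 on 5 arrays and at 3.32 to 4.03 on the other 7. The 5 were all 3 heart PS arrays and PS 1 and PS 3 of cerebrum, so pattern and treatment cannot be told apart in heart. The cerebrum arrays of the MCT group and PS 2 shared the low pattern. Within heart, the atrial gene Myl7 was at 8.53 in MCT 3 and 6.80 in PS 3, and at 4.16 to 5.08 on the remaining arrays.

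Promoters are shown for the genes of this family whose windows help a reader see what the tachykinin genes share: the bases before the transcription start of Tac1, Tacr1 and Tacr3, and that of the opioid precursor Pdyn for contrast. They are RefSeq sequences of build GRCm38.p6, written 5′ to 3′ on the strand of the gene. The capitals mark TGACG or its reverse complement CGTCA, the core of the cAMP response element, searched on both strands. It is part of the full palindrome TGACGTCA, so matches of the latter would also count here.

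Tac1, chr6:7554811-7555060, plus strand: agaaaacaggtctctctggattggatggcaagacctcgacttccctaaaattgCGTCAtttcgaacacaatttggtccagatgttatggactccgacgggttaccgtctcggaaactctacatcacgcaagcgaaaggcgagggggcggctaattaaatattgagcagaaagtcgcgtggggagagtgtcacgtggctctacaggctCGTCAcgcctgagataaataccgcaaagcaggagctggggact

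Tacr1, chr6:82402225-82402474, plus strand: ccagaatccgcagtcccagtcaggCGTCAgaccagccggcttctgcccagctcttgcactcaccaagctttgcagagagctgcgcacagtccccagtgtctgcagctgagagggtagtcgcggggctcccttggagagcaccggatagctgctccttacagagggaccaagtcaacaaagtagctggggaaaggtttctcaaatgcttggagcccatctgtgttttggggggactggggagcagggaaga

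Tacr3, chr3:134828757-134829006, plus strand: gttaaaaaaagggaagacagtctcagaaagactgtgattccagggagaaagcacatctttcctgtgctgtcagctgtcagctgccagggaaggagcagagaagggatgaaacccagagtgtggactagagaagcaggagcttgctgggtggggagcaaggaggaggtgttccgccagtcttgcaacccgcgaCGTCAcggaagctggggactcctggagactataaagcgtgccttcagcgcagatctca

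Pdyn, chr2:129699939-129700188, minus strand: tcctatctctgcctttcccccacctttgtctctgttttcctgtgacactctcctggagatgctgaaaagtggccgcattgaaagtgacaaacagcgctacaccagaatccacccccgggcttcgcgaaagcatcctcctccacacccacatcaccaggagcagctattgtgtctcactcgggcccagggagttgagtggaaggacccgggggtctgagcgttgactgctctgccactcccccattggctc

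The Tac1 window held 2 matches, whose first bases lay 197 and 43 bases before the start. Tacr1 held 1 match at 226 bases and Tacr3 held 1 at 58 bases before the start. Among the windows of the opioid genes, 0 of 6 held a match (2 starts of Pdyn, 3 of Oprm1 and 1 of Oprd1). Of the Oprm1 windows, chr10:6788320-6788569 and chr10:6788326-6788575 overlap almost wholly, so the 6 are not separate. A difference between the tachykinin and opioid windows was not tested. Of all 32851 windows of 250 bases in the table, 17.8% held TGACG on either strand and 1.55% held TGACGTCA. Other motifs counted on both strands did not divide the 2 families in this way. GGGCGG occurred 4 times in Oprd1 and 1 time in Tac1, and CACGTG 1 time in each of these 2 genes. TATAAA occurred 1 time, in Tacr3. Of all windows, 32.7%, 6.02% and 12.4% held these motifs. Of the 9 genes, 6 were matched in the table. Penk, Pnoc and Oprk1 were not. These matches describe letters and say nothing of binding.

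The first comparison, PS against MCT in cerebrum, asked whether 3 months of PS altered these genes in brain. Of the 9 genes, 8 were bright enough to be tested, with a mean over the 6 arrays no lower than the 40th percentile (log2 intensity 5.04), and Tacr3 fell short of it. Tac1 and Oprk1 fell with PS, and none of the other 6 passed the threshold of 0.05 (limma with Benjamini-Hochberg adjustment over 12733 transcripts). The background in the same fit was 5.76% of transcripts past the threshold in either direction and 3.93% lower with PS. At an unadjusted p under 0.05 in limma there were 3 of the 8 genes, where 29.0% of all transcripts tested lay. The median difference of the 8 tested genes was −0.60 on the log2 scale, against −0.03 over all transcripts tested. Irrespective of the filter, the PS and MCT arrays did not overlap for 4 of the 9 genes (Tac1, Penk, Tacr3 and Oprk1, all lower with PS), and 25.5% of all transcripts showed such separation in either direction.

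**Figure D1:**
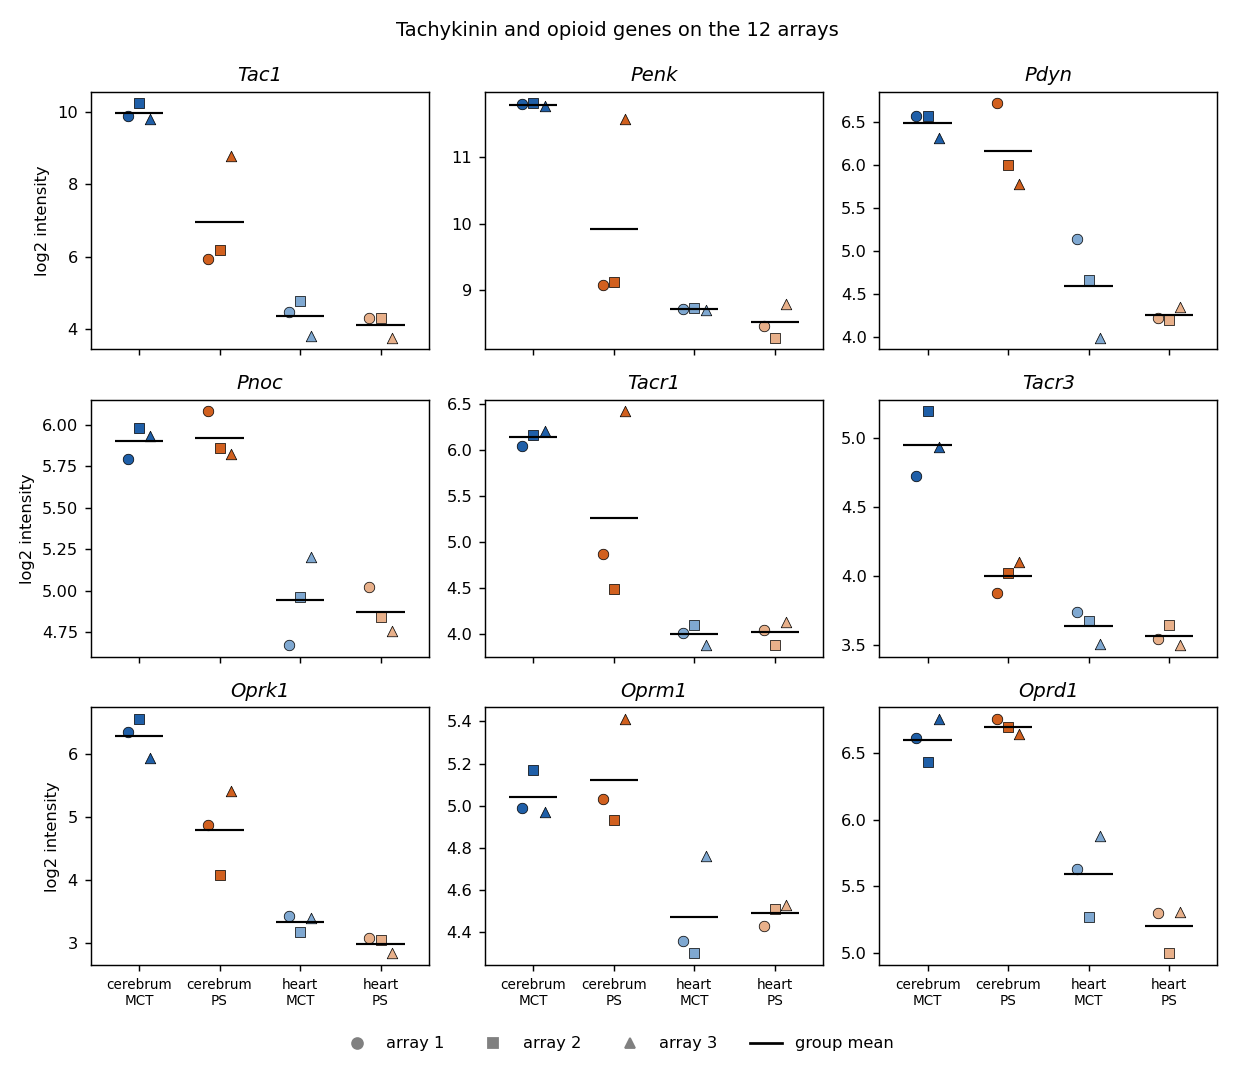
Log2 intensity of the 9 genes on each of the 12 arrays, by tissue and treatment; the symbol is the array number and the bar the mean of 3 arrays. Each vertical axis has its own range and none starts at 0. In cerebrum the PS arrays of Tac1, Penk, Tacr3 and Oprk1 lie below all MCT arrays, and PS 3 lies nearest to them for Tac1, Penk and Oprk1.

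Among the precursors, Tac1 was at 9.88, 10.23 and 9.81 on the cerebrum MCT arrays. On the PS arrays it was at 5.92, 6.19 and 8.77. PS 1 and PS 2 were far below every MCT array, and PS 3 lay between the groups, about 1 log2 unit under the lowest MCT array. The difference was −3.01 ± 0.67 on the log2 scale (SE, n = 3 per group, 95% confidence interval −4.58 to −1.45, limma adjusted p = 0.0469), an 8.07-fold lower geometric mean. The call was lost without a filter (adjusted p = 0.0673). PS 2 was the single PS array with the low Xist pattern of the MCT arrays. A fit with that pattern as a covariate therefore sets this 1 array against the 3 MCT arrays, at −3.78 (adjusted p = 0.0543), and assumes that it varies like the others.

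Penk, the enkephalin precursor, was nearly constant in MCT cerebrum, at 11.80, 11.81 and 11.77. With PS it was at 9.08, 9.13 and 11.57. The groups did not overlap, but PS 3 was only just under the lowest MCT array, while PS 1 and PS 2 were lower by more than 2 log2 units. The difference of −1.87 ± 0.60 did not pass the threshold (95% confidence interval −3.27 to −0.46, limma adjusted p = 0.0969).

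Pdyn, the dynorphin precursor, was at 6.57, 6.57 and 6.32 with MCT and 6.72, 6.00 and 5.78 with PS. Here PS 1 was the highest of the 6 arrays and PS 3 the lowest, so the groups overlapped and the order of the PS arrays was the reverse of that for Tac1. The difference was −0.32 ± 0.23 (95% confidence interval −0.85 to 0.21, limma adjusted p = 0.381).

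Pnoc, the nociceptin precursor, was at 5.79, 5.98 and 5.93 with MCT and 6.08, 5.86 and 5.82 with PS. PS 1 was the highest of the 6 arrays and MCT 1 the lowest, and the groups overlapped. The difference of 0.02 had a 95% confidence interval of −0.21 to 0.25 (limma adjusted p = 0.91).

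The spread of the PS arrays differed between precursors. The standard deviation of the 3 PS arrays was 1.57 for Tac1 and 1.42 for Penk, against 0.23 and 0.02 with MCT. For Pdyn it was 0.49 with PS and 0.14 with MCT, and for Pnoc 0.14 and 0.10. The contrast of Tac1 with Pdyn was also computed within each array. The Tac1 value exceeded that of Pdyn by 3.31 to 3.66 on the MCT arrays and by −0.80 to 2.99 on the PS arrays. This PS minus MCT difference of −2.69 gave p = 0.1 in a two-sided exact permutation test, the smallest p that 3 arrays against 3 allow (adjusted p = 0.24 over 12 gene pairs). The contrast of Penk with Pdyn, −1.55, overlapped between groups and gave p = 0.4 in the same exact test (adjusted p = 0.686). The result for Tac1 with Pdyn was not particular to that pair. In cerebrum, p was also 0.1 in this test (adjusted p = 0.24) for Tac1 with Penk (−1.15) and Tac1 with Tacr1 (−2.14). It was the same for Oprk1 with Oprd1 (−1.60) and with Oprm1 (−1.58).

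Among the receptors, Oprk1, the kappa receptor, was at 6.36, 6.56 and 5.95 in MCT cerebrum. With PS it was at 4.87, 4.08 and 5.42. Every PS array was below every MCT array, with PS 2 lowest and PS 3 highest. The difference was −1.50 ± 0.32 (95% confidence interval −2.25 to −0.75, limma adjusted p = 0.0443). Only 1 of the 3 PS values reached the 40th percentile of its array, so the size of the difference is uncertain, and without a filter the call was lost (adjusted p = 0.0606). The covariate fit for the Xist pattern, again PS 2 alone against the MCT arrays, gave −2.21 (adjusted p = 0.0120).

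Tacr1, the substance P receptor, was at 6.04, 6.16 and 6.21 with MCT and 4.87, 4.49 and 6.42 with PS. PS 1 and PS 2 were below all MCT arrays, but PS 3 was the highest of the 6. Only 1 of the 3 PS values reached the 40th percentile of its array. The difference of −0.88 ± 0.44 was not past the threshold (95% confidence interval −1.90 to 0.14, limma adjusted p = 0.227).

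Tacr3, the neurokinin B receptor, was at 4.72, 5.19 and 4.93 with MCT and 3.88, 4.02 and 4.10 with PS. The groups did not overlap, with PS 1 the lowest and PS 3 the highest of the PS arrays, which lay closer together than those of Tac1, Penk or Oprk1. Its difference of −0.95 was not tested at the filter. Without a filter, it was the only 1 of the 9 genes past the threshold in cerebrum (SE 0.13, limma adjusted p = 0.0279), where 2.42% of all transcripts passed. Only 1 of its 6 cerebrum values reached the 40th percentile of its own array, so its level was near the low end of the arrays.

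The mu and delta receptors stayed within narrow ranges, though Oprm1 was weak. Of its values, 1 of 3 with MCT and 2 of 3 with PS reached the 40th percentile of their arrays. Oprm1 was at 4.99, 5.17 and 4.97 with MCT and 5.03, 4.93 and 5.41 with PS, with overlapping groups and a difference of 0.08 (95% confidence interval −0.23 to 0.39, limma adjusted p = 0.72). Oprd1 was at 6.61, 6.43 and 6.75 with MCT and 6.75, 6.69 and 6.64 with PS. Its groups overlapped too, with a difference of 0.10 (95% confidence interval −0.13 to 0.33, limma adjusted p = 0.547).

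**Figure D2:**
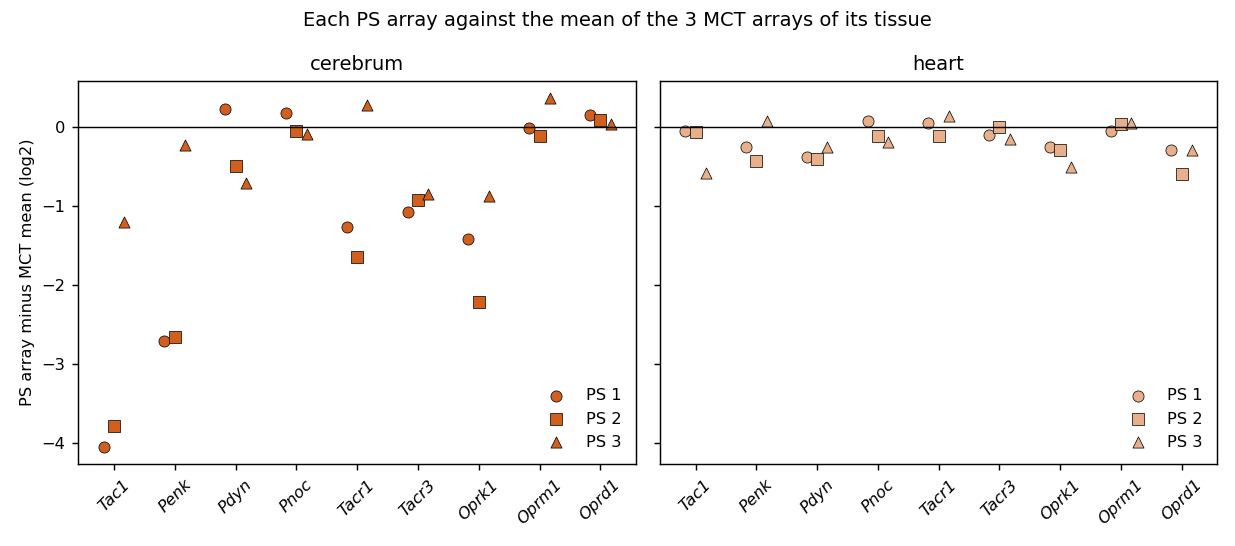
Difference of each PS array from the mean of the 3 MCT arrays of the same tissue, in log2 units, for the 9 genes in cerebrum (left) and heart (right). In cerebrum, PS 1 and PS 2 are at −4.05 and −3.78 for Tac1 and PS 3 at −1.20, whereas all heart values lie between −0.59 and 0.14.

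Single arrays decided the calls in cerebrum. With PS 3 left out, 4 genes passed (limma): Tac1 at −3.92 (adjusted p = 5.58e-05), Penk at −2.69 (2.37e-05), Tacr1 at −1.46 (0.00187) and Oprk1 at −1.82 (0.0098). With any other array left out, 0 of those tested passed. The Tac1 difference then ran from −3.06, −2.89 and −3.10 without MCT 1, MCT 2 and MCT 3 (adjusted p = 0.18, 0.158 and 0.0761) to −2.49 and −2.63 without PS 1 and PS 2 (0.126 and 0.0919). For Oprk1 the same 5 omissions gave −1.47, −1.37, −1.67, −1.54 and −1.15 (adjusted p = 0.18, 0.155, 0.0557, 0.116 and 0.0598). The number of transcripts past the threshold over the whole table also moved, from 734 to 1557 without PS 3 and to 0, 2, 615, 0 and 145 without the others in that order.

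**Figure D3:**
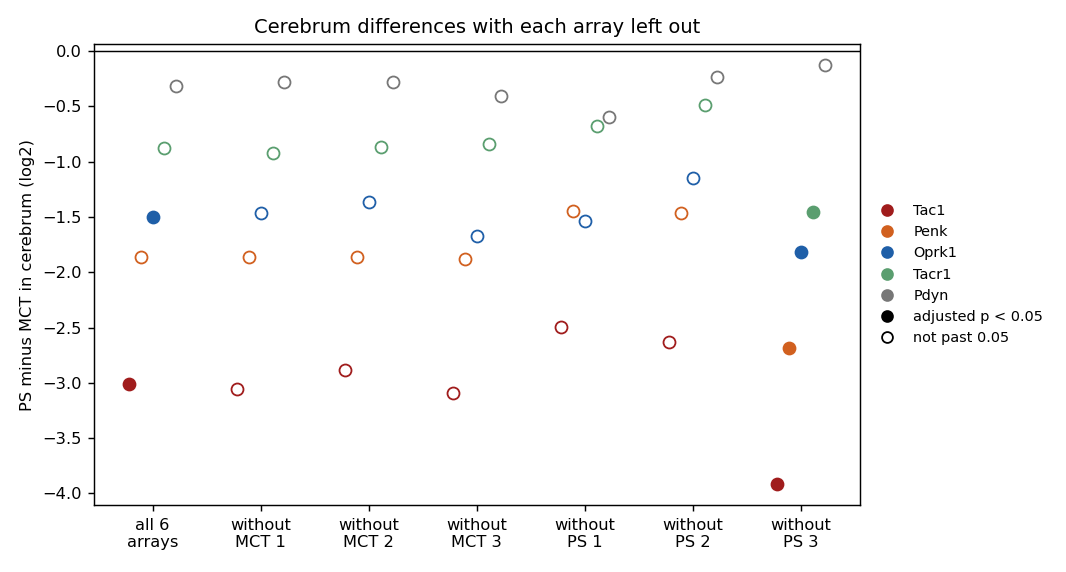
PS minus MCT difference in cerebrum (log2) for 5 genes, with all 6 arrays and with each array left out; filled points passed an adjusted p of 0.05 in limma. Tac1 and Oprk1 are filled with all arrays and without PS 3, and Penk and Tacr1 are filled without PS 3 alone.

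Genes of striatal medium spiny neurons moved with the values of some of the 9 genes. From a list of shared markers of these neurons, 13 were measured, none of them among the 9 genes, and their mean was 8.96, 9.12 and 8.99 in MCT cerebrum. It was 7.35, 7.44 and 8.58 in PS cerebrum. PS 1 and PS 2 were again lowest and PS 3 lay between them and the MCT arrays, as for Tac1 and Penk. Over the 6 arrays, the Pearson correlation with this mean was 0.999 for Tac1, 0.99 for Penk, 0.93 for Oprk1, 0.92 for Tacr1 and 0.87 for Tacr3. It was 0.08 for Pdyn, 0.28 for Oprm1, −0.35 for Pnoc and −0.55 for Oprd1. Over the 4 arrays without PS 1 and PS 2 it was 0.996 for Tac1, 0.97 for Penk, 0.92 for Oprk1, 0.99 for Tacr3 and −0.80 for Tacr1. For Pdyn it was then 0.94, for Oprm1 −0.73, for Pnoc 0.64 and for Oprd1 −0.39. Of the 12 markers tested, 12 were lower with PS and 4 passed the threshold in limma (Scn4b −1.17, Syndig1l −1.53, Pde1b −1.04 and Rarb −1.88). Their median difference was −1.24, against −0.03 over all transcripts, of which 5.76% passed in either direction.

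The 2 pathways were looked at apart. The 4 measured indirect-pathway markers had a mean of 8.33, 8.43 and 8.33 with MCT and 5.93, 5.61 and 7.91 with PS. All 4 were lower with PS and 0 passed in limma (3 at an unadjusted p under 0.05, where 29.0% of all transcripts tested in cerebrum lay), among them Drd2, the D2 dopamine receptor, at −3.12 ± 0.88 (limma adjusted p = 0.0733). The 6 measured direct-pathway markers had a mean of 7.57, 7.74 and 7.59 with MCT and 6.48, 6.44 and 7.12 with PS. Of the 5 tested, 3 were lower and 2 higher with PS (Eya1 at 0.15 and Chrm4 at 0.04). In limma 3 of them were at an unadjusted p under 0.05. Slc35d3, a carrier protein, fell by 1.62 (limma adjusted p = 0.0469), and Drd1, the D1 dopamine receptor, was at −1.87 ± 0.45 (adjusted p = 0.0534).

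The mean of the 13 markers was also entered into the fit as a covariate, an alternative added once the values were known. Of the 8 tested genes, 0 then passed, but over the whole table only 1 transcript did, against 734 without the covariate. The lost calls are therefore not particular to these genes. The treatment difference was then −0.18 for Tac1 (limma adjusted p = 0.682), −0.53 for Oprk1 (0.681), 0.66 for Penk (0.411) and 0.89 for Tacr1 (0.411). The marker mean did not overlap between the treatments, so it and the treatment cannot be fully told apart in this fit. In bulk tissue, fewer cells of a type and less RNA per cell cannot be told apart either. Other regional markers also differed in places: 7 of 7 cortical projection neuron markers were higher with PS (list mean 8.88 to 9.35 against 8.32 to 8.82 with MCT), with 1 past the threshold, Fezf2 at 0.74. The 6 neuronal markers were split, 4 higher and 2 lower, with 0 past in limma and 1 at an unadjusted p under 0.05. Of 10 cortical interneuron markers, the cell class in which cortical Pnoc is found, 3 rose (Npy 1.02, Cck 0.74 and Sst 0.47) and 1 fell (Gad2 −0.68). Of 5 thalamic markers, 4 were lower and 0 passed in limma (2 at an unadjusted p under 0.05). Over all transcripts tested in cerebrum, 5.76% passed in either direction and 29.0% were at an unadjusted p under 0.05. The 5 measured hypothalamic markers had a mean of 4.41 to 4.91 with PS and 4.83 to 6.31 with MCT, highest in MCT 2. The part of tissue composition in the differences was not tested beyond these values.

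**Figure D4:**
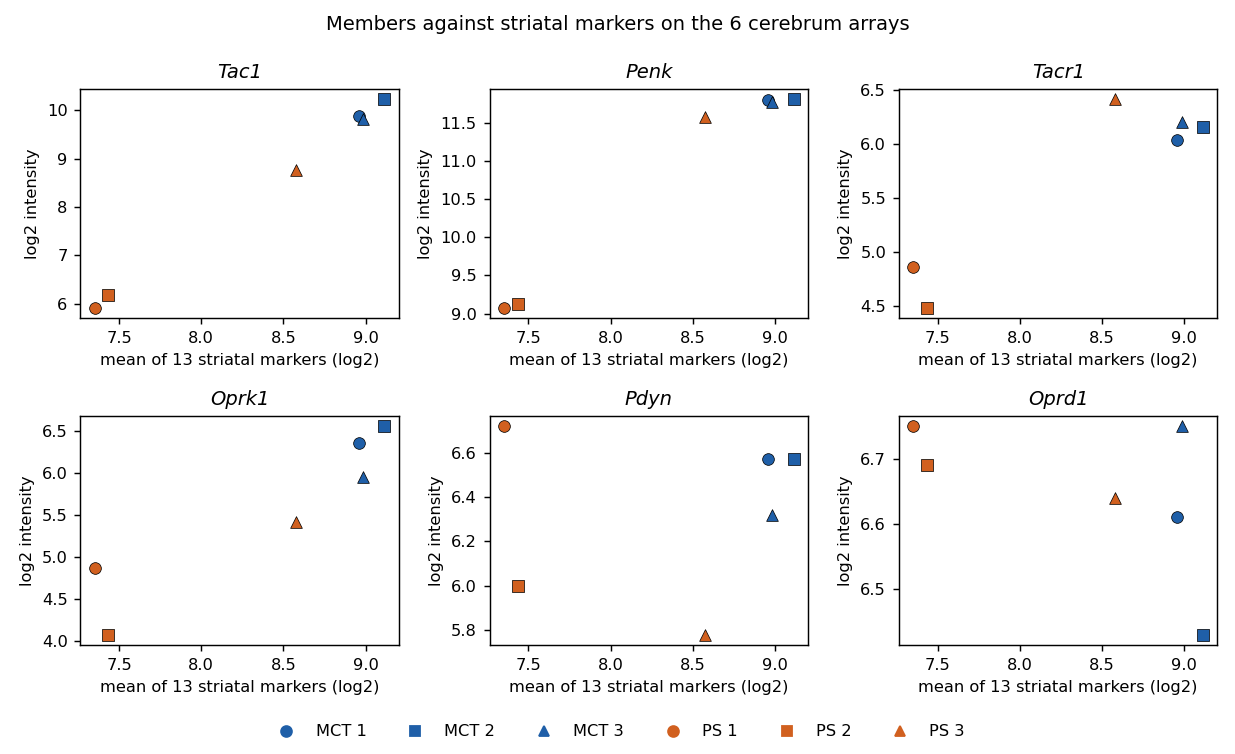
Log2 intensity of 6 genes (vertical) against the mean log2 intensity of 13 striatal medium spiny neuron markers (horizontal) on the 6 cerebrum arrays; colour gives the treatment and symbol the array number. For Tac1, Penk and Oprk1 the arrays with the 2 lowest marker means also have the 2 lowest values, while for Pdyn the lowest marker array, PS 1, has the highest value.

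The genes most like each precursor over the 6 cerebrum arrays were found by Pearson correlation of log2 values, as a description in which PS 1 and PS 2 weigh heavily. For Tac1 these were Drd1 (r = 0.9995), Adcy5 (0.9986), Smad7 (0.998) and Sh3rf2 (0.9977). Drd1 was at 8.78, 9.0 and 8.69 with MCT and 6.27, 6.44 and 8.15 with PS, and over the 4 arrays without PS 1 and PS 2 its r with Tac1 was 0.9965. For Penk they were Lmo3 (0.9974), Sulf1 (0.9957), Rxrg (0.9956) and Gng7 (0.9943). Without PS 1 and PS 2, r with Penk was 0.768 for Lmo3 and 0.982 for Rxrg, which was at 9.07, 9.18 and 8.89 with MCT and 5.29, 5.09 and 8.37 with PS. The genes most like Pdyn were others, Diras1 (0.9932), Rbm19, Cep162 and Hif1a, and those most like Pnoc were Tmem232 (0.9757), Lypla2, Rnf103 and Mrps27. Diras1 was at 7.14 to 7.25 with MCT and 6.94 to 7.29 with PS, highest in PS 1 and lowest in PS 3 as Pdyn was.

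Other genes of the same peptide systems were read from lists. Of 7 further tachykinin and opioid genes measured, 5 were tested in cerebrum, 2 higher and 3 lower with PS, and 0 passed in limma (1 at an unadjusted p under 0.05, a share below the 29.0% of all transcripts), with a median of −0.01. Tac2, the neurokinin B precursor, was at 7.53, 7.68 and 7.18 with MCT and 7.90, 7.13 and 7.37 with PS, with overlapping groups. Oprl1, the nociceptin receptor, differed by −0.12 (adjusted p = 0.568), and Ogfr, the opioid growth factor receptor, by −0.31 (0.0924). Pomc, the precursor of beta-endorphin, was at 4.41 to 4.79 on 5 cerebrum arrays and at 8.10 on PS 3. Tac4 and Tacr2 were at 3.56 to 3.74 and 3.71 to 3.99 in cerebrum and were not tested.

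Of 7 genes of peptide processing, 4 were higher and 3 lower with PS in cerebrum (median 0.19). Past the threshold, 2 rose, where 5.76% of all transcripts passed in either direction. Pcsk1n, the precursor of an inhibitor of prohormone convertase, was at 11.23, 11.37 and 11.07 with MCT and 11.66, 11.77 and 11.73 with PS, without overlap (0.50 ± 0.10, limma adjusted p = 0.0382). Furin, a proprotein convertase, was at 6.60 to 6.74 and 6.95 to 7.25, likewise without overlap (0.43 ± 0.10, adjusted p = 0.0487). Pcsk1, the convertase of neuroendocrine granules, differed by 0.55 and Ctsl, a cysteine protease, by −0.24, neither past the threshold.

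Among 8 genes of peptide breakdown, 4 were higher and 4 lower with PS, with a median of 0.00. Past the threshold, 2 fell, against the same 5.76% of all transcripts. Mme, the neprilysin that cleaves enkephalins and substance P, was at 7.47, 7.31 and 7.38 with MCT and 5.90, 5.63 and 6.45 with PS (−1.39 ± 0.19, limma adjusted p = 0.0227). Ece2, a related endopeptidase, was at 6.94, 7.09 and 6.80 with MCT and 6.08, 5.67 and 6.29 with PS (−0.93 ± 0.16, adjusted p = 0.0342). For both, the groups did not overlap and PS 3 was the highest PS array, as it was for Tac1, Penk and Oprk1.

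Next came 18 genes that couple these receptors to the cell, such as G protein subunits, adenylyl cyclase, potassium channels and RGS proteins. Of these, 13 were higher and 5 lower with PS (median 0.08). In limma 0 passed, and 4 were at an unadjusted p under 0.05, where 29.0% of all transcripts lay. Among the 18, the lowest p belonged to Adcy5, the main adenylyl cyclase of the striatum, at −1.30 (limma adjusted p = 0.0556). After it came the potassium channel gene Kcnj6 at 0.49 (0.0602), Rgs9 at −2.83 (0.0623) and Kcnj3 at 0.51 (0.0924). Adcy5 and Rgs9 also stand on the striatal list.

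The second comparison, PS against MCT in heart, asked the same of a peripheral organ. Only Penk and Oprd1 reached the heart filter (log2 intensity 4.94). Of these 2 genes, 0 passed in limma, and 0 did at an unadjusted p under 0.05, where the background was 0.33% of 12739 transcripts past the adjusted threshold. Without a filter 0 of the 9 passed, with 0.198% of all transcripts past it.

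Penk was the gene of the family with a clear signal in heart, at 8.72, 8.73 and 8.71 with MCT and 8.47, 8.29 and 8.80 with PS. The MCT arrays lay almost on one value, and the PS arrays lay on both sides of it. The difference was −0.20 ± 0.15 (95% confidence interval −0.54 to 0.14, limma adjusted p = 0.422). Oprd1 was at 5.63, 5.27 and 5.88 with MCT and 5.30, 5.0 and 5.31 with PS. MCT 2 fell among the PS arrays, and the difference was −0.39 ± 0.18 (95% confidence interval −0.80 to 0.02, adjusted p = 0.226).

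Of the other 7 genes, Tac1, Tacr1, Tacr3, Oprm1 and Oprk1 had 0 of 6 heart values at or above the 40th percentile of their arrays, Pdyn had 1 and Pnoc had 3. Oprk1 alone separated between treatments in heart, at 3.43, 3.17 and 3.39 with MCT and 3.08, 3.04 and 2.83 with PS, where 23.6% of all transcripts separated in either direction. Its difference of −0.35 was not past the threshold without a filter (limma adjusted p = 0.203). Tac1 was at 4.46, 4.77 and 3.80 with MCT and 4.30, 4.29 and 3.76 with PS, with overlap. MCT 3 and PS 3, the arrays with high Myl7, were the lowest of their groups for Tac1. Pdyn had its highest heart value in MCT 1, at 5.14, with the other 5 arrays at 3.99 to 4.66. Tacr1, Tacr3, Oprm1 and Pnoc overlapped between treatments, at 3.88 to 4.14, 3.50 to 3.74, 4.30 to 4.76 and 4.67 to 5.20 over the 6 heart arrays. With MCT 3 and PS 3 left out together, Penk (−0.35) and Oprd1 (−0.30), the 2 genes tested, did not pass, whereas transcripts past the threshold over the whole table rose from 42 to 1164.

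Peptide system genes outside the 9 showed 0 past the threshold in heart in the lists of further tachykinin and opioid genes (2 tested), processing (6 tested), breakdown (8 tested) and coupling (14 tested). At an unadjusted p under 0.05 these lists held 1, 1, 6 and 5 genes, where 23.7% of all transcripts tested in heart did so. Within breakdown, 6 of 8 were higher with PS, led by Anpep, an aminopeptidase that degrades enkephalins, at 1.15 (limma adjusted p = 0.118). Mme was at −0.45 in heart (adjusted p = 0.208) and Pcsk1n at −0.60 (adjusted p = 0.119), opposite in sign to its cerebrum value.

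Whether PS acted differently on the 2 tissues was tested as the difference of both PS effects over all 12 arrays. Of the 9 genes, 5 were tested and 0 passed in limma, where the background was 1.52% of 12731 transcripts. At an unadjusted p under 0.05 there were 3, against 19.2% of all transcripts tested. The difference of the effects, cerebrum minus heart, was −2.79 ± 0.79 for Tac1 (95% confidence interval −4.51 to −1.07, adjusted p = 0.0918) and −1.67 ± 0.68 for Penk (adjusted p = 0.207). Without cerebrum PS 3, both passed, Tac1 at −3.69 (adjusted p = 0.000245) and Penk at −2.49 (4.22e-05). For Pdyn and Pnoc the differences were 0.02 and 0.09, with intervals of −0.80 to 0.84 and −0.33 to 0.51. Without a filter Tacr3 passed, at −0.87 (SE 0.17, adjusted p = 0.0391), against 0.848% of all transcripts.

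For Oprd1, neither tissue passed and the groups overlapped in both. Each PS array of cerebrum was above the mean of its MCT arrays, at 0.04 to 0.15 from it, and each of heart was below, at −0.59 to −0.28. The difference of both effects, 0.49 (95% confidence interval 0.03 to 0.95), was not past the threshold after adjustment (limma adjusted p = 0.237).

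The third comparison set cerebrum against heart within each treatment. In MCT mice all 9 genes were higher in cerebrum on every array, a separation in that direction found for 29.6% of all transcripts. Of 5 tested genes, 5 passed in limma and all were higher in cerebrum, against a background of 40.3%. Tac1 differed by 5.63 ± 0.24 (adjusted p = 7.85e-08) and Penk by 3.07 ± 0.10 (1.6e-08). Pdyn differed by 1.89 ± 0.26, Oprd1 by 1.00 ± 0.17 and Pnoc by 0.96 ± 0.15. Without a filter, 9 of 9 passed, where 27.8% of all transcripts were higher in cerebrum. In heart, 0 of the 6 values of Tac1, Tacr1, Tacr3, Oprm1 and Oprk1 reached the 40th percentile of their arrays, so the sizes of their tissue differences are uncertain and were not ranked.

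In PS mice the 9 genes were again higher in cerebrum on every array, with 28.2% of all transcripts doing so. Of 4 tested, 3 passed in limma, against a background of 37.6% higher in cerebrum: Tac1 at 2.84 ± 0.69 (adjusted p = 0.00623), Oprd1 at 1.49 ± 0.11 (7.86e-06) and Pnoc at 1.05 ± 0.11 (6.9e-05). Penk, at 1.41 ± 0.62, did not pass (adjusted p = 0.0712). Leaving out PS 1, PS 2 or PS 3 of cerebrum gave 1.83, 1.81 and 0.59 for Penk, each past the threshold (adjusted p = 0.0454, 0.0414 and 0.0151). Without a filter 7 of 9 passed, the exceptions being Penk and Tacr1, and 25.9% of all transcripts were called higher in cerebrum.

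**Figure D5:**
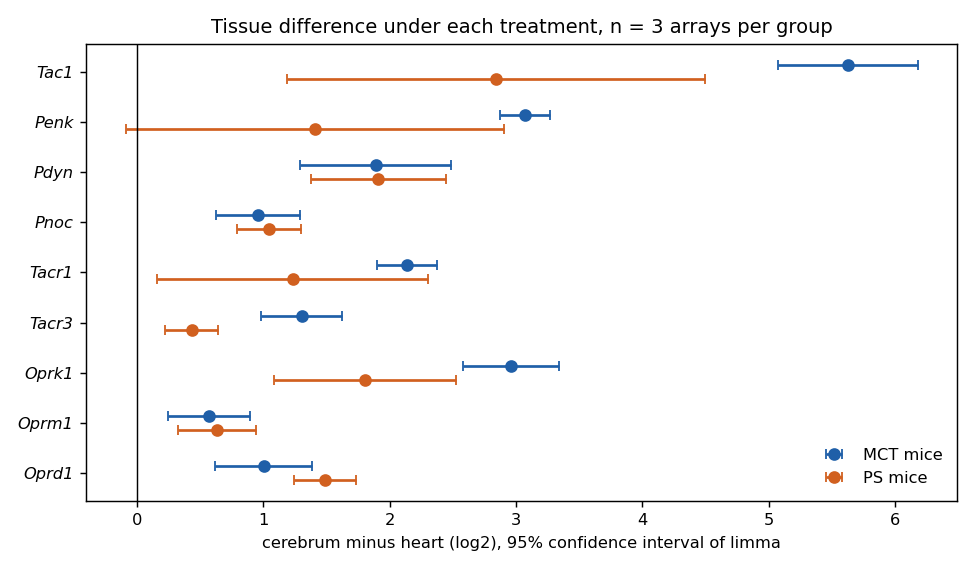
Cerebrum minus heart difference (log2) of the 9 genes in MCT and PS mice, with the 95% confidence interval of limma fitted without a filter, 3 arrays per group. The interval of Tac1 lies at 5.08 to 6.18 in MCT mice and at 1.19 to 4.50 in PS mice, whereas for Pdyn, Pnoc and Oprm1 the 2 intervals overlap almost wholly.

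Over the 4 conditions, the order of mean levels was cerebrum MCT, cerebrum PS, heart MCT and heart PS for Tac1, Penk, Pdyn, Tacr3 and Oprk1. For Tacr1 it was cerebrum MCT (6.14 ± 0.09, SD, n = 3), cerebrum PS (5.26 ± 1.02), heart PS (4.03 ± 0.13) and heart MCT (4.00 ± 0.11). For Oprm1 the order was cerebrum PS (5.12 ± 0.25), cerebrum MCT (5.04 ± 0.11), heart PS (4.49 ± 0.05) and heart MCT (4.47 ± 0.25). For Oprd1 and Pnoc it was cerebrum PS, cerebrum MCT, heart MCT and heart PS. The neighbours cerebrum PS and cerebrum MCT overlapped on single arrays for Pdyn, Pnoc, Tacr1, Oprm1 and Oprd1, and the heart groups overlapped for all but Oprk1. The step between the lower cerebrum group and the higher heart group was free of overlap for every gene.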

How the data were processed

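RNA of cerebrum and heart was hybridised to Affymetrix whole-transcript arrays, 3 for each tissue and treatment. Per the submitters' processing notes, the authors used Affymetrix Expression Console. Not given in the sources used here: its version, background correction, probe summary and the genome build. Deposited were log2 values, 1 per transcript cluster and array for 35556 clusters; the log2 scale was read from their range of 1.9 to 13.11. Array medians were 4.89 to 5.0, and no further normalization was applied. A shift common to all transcripts would not show after equalising medians, and 1 value per cluster hides differences between exons. The supplied platform annotation gave 1 symbol to 21218 clusters, several to 1881 and none to 12457. Those with several or none entered only an alternative.

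Groups came from the labels. Each comparison was fitted in limma 3.58.1 (lmFit and eBayes, two-sided) in R 4.3.3 over the arrays it concerns, on clusters whose mean reached the 40th percentile, with Benjamini-Hochberg adjustment over all of them and a threshold of 0.05. The fit was tested on simulated data. A group of 3 arrays limits the precision, and p-values measure the spread between arrays. All 9 genes are named, with up to 4 of each list by the lowest p in cerebrum and the 4 genes most correlated with each precursor; further members of lists were named after their values were seen. The members and lists were chosen with earlier results of these data known. Promoter matches came from the supplied RefSeq table, and protein sequences were not used here. Alternatives covered filters, scaling, limma's intensity trend, array weights, all transcripts, a replicate block, a fit of all 12 arrays, covariates for the Xist pattern and for striatal markers, and omission of each array.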

Additional observations from a re-analysis of the deposited data

Results flagged for a closer look

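Oprd1, the delta opioid receptor, had every PS array above the MCT mean in cerebrum and every one below it in heart, although neither tissue passed the threshold. The difference of the effects was 0.487 on the log2 scale and did not pass the threshold in limma (adjusted p = 0.237, 0.119 to 0.419 over the alternatives). Its sign was the same in all 20 alternatives run, which refit the same arrays and so add no independent support. In cerebrum its PS values, 6.64 to 6.75, lay within the MCT range of 6.43 to 6.75. How many of all transcripts show such a pattern was not counted.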

How the results depend on the processing

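Counts of the 9 genes past the threshold moved with the setting. In cerebrum, the count of 2 (Tac1 and Oprk1) became 1 without a filter, with a filter at the 20th percentile or over all transcripts, where Tacr3 passed and both others were lost (adjusted p of Tac1 0.0673, 0.054 and 0.0798, of Oprk1 0.0606, 0.0507 and 0.0747). It was 1 at the 60th percentile (Tac1, Oprk1 not being tested) and with the Xist pattern as covariate (Oprk1), 0 with the replicate block or with the striatal marker mean, and 3 with array weights, which added Penk (−2.07, adjusted p = 0.0139). Leaving out single arrays gave 0 to 4 genes. Transcripts past the threshold, 734 in cerebrum, were 3407 with array weights (whose estimation stopped before convergence), 189 over all transcripts, 371 in the fit of 12 arrays, 0 with the replicate block, 1 with the striatal covariate and 0 to 1557 with single arrays left out. In heart, 42 became 6988, 17, 1722 and 88 under the same first 4 settings, 1164 without MCT 3 and PS 3, and 4 to 3416 with single arrays left out (3416 without MCT 3), and 0 of those of the 9 genes that were tested passed in each. For the difference between tissues, 194 became 294 with median centring and 3 to 1629 with single arrays left out. The genes went from 0 to 1 without a filter or at the 20th percentile and ran from 0 to 2 with single arrays left out.

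Cerebrum against heart in MCT mice gave 9 genes without a filter or at the 20th percentile, 2 at the 60th (with 6396 transcripts) and 8 over all transcripts, in place of 5. In PS mice it gave 7, 7, 0 and 6 in place of 3. The share of all transcripts called higher in cerebrum was 40.3% in the main fit and 27.8% without a filter in MCT mice. In PS mice it was 37.6% and 25.9%. For the other settings named here this share was not computed, so their counts describe these genes only. The filters change how many genes are tested; for the other settings the cause was not tested.

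Some signs turned. In cerebrum, Pnoc was −0.01 with median centring, −0.04 with the Xist covariate, −0.13 with the striatal covariate and −0.06 to 0.07 with single arrays left out. Oprm1 was −0.11 with the Xist covariate, and Oprd1 −0.017, Tacr1 0.89 and Penk 0.66 with the striatal covariate. For the difference between tissues, Pdyn was −0.03 with median centring and −0.26 to 0.32, and Pnoc −0.038 to 0.23, with single arrays left out.

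Replicate numbers did not meet the bar set for pairing, a correlation of deviations over 0.1 in every pair: same-numbered arrays gave −0.26 to 0.10 in cerebrum, −0.0048 to 0.15 in heart, 0.0993 to 0.285 between tissues under MCT and 0.0525 to 0.119 under PS. In cerebrum against heart under PS, 6 of 6 arrays correlated best with their own number. Yet Xist was at 3.32 in cerebrum PS 2 and at 9.13 in heart PS 2, and Eif2s3y at 7.25 and 3.49. Arrays of 1 mouse would share this sex-linked pattern, so number 2 was not taken as 1 mouse. The replicate block gave 4 genes in place of 3 in that comparison. Signals near the low end of the arrays, as for most of these genes in heart, limit what differences could be seen.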
